A study of Rattus norvegicus with 11 samples.

Results

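H19, Igf2, Phlda2, Mest, Cdkn1c and Grb10 are 6 imprinted genes that act in the growth of the fetus and the placenta. They were chosen by name with earlier results of these data known, so counts of them beside all genes are descriptions. Every row of the expression table that the array annotation maps to them was used. The table held 7 such rows, 2 for H19 and 1 for each of the others, among 29214 rows and 14506 named genes. The values come from 11 arrays that followed rat embryonic stem cells of the single line DAc2 while they were converted to cHypoSCs, that is, hypoblast stem cells. The hypoblast is an early embryonic layer, also known as primitive endoderm, whose descendants line the yolk sac. In the feeder arm the starting stem cells grew on mouse embryonic fibroblasts in N2B27 medium with 3 µM CHIR99021, a GSK3 inhibitor, and 0.5 µM PD0325901, a MEK inhibitor. In the feeder-free arm they grew on laminin, again in N2B27 with 3 µM CHIR99021, but PD0325901 was at 2 µM and human BMP4 was added at 5 ng/mL. Cells of both arms were then moved to a progenitor medium that held LIF, EGF, PDGF and 2% serum. RNA was taken from the starting cells, called day 0 here, and at days 7, 17 and 32. Each of the 4 times was measured on 1 array in the feeder arm. Feeder-free cells were measured on 1 array at the start and on pairs of arrays afterwards. These pairs are biological replicates by label, but nothing says that the cultures were separate, so p-values may measure technical spread. The labels do not say whether feeder cells stayed in the cultures during conversion.

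An imprinted gene is transcribed mainly from the allele of a single parent, because a nearby control region carries DNA methylation from only the egg or only the sperm. In the mouse, where parental origin is best known, Igf2 and Mest are expressed from the paternal allele, and H19, Phlda2, Cdkn1c and, in most tissues, Grb10 from the maternal allele. Paternally expressed genes of this kind tend to promote growth of the fetus and placenta and maternally expressed ones tend to restrain it. Igf2 encodes insulin-like growth factor II, a secreted ligand. Mest encodes a protein of the alpha/beta hydrolase family. H19 is a long noncoding RNA, Phlda2 encodes a small pleckstrin homology domain protein that restrains placental growth, Cdkn1c encodes the cyclin-dependent kinase inhibitor p57Kip2, and Grb10 encodes an adaptor that dampens signalling from insulin and IGF receptors. The arrays measured the total RNA of each gene, so none of the values below says which allele was active.

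H19 is also the host of the microRNA gene Mir675. Its mature products are shown because they are the part of H19 that a reader could look for in other data. The array rows used here did not measure them. Capitals mark the seed, bases 2 to 8. In the RefSeq annotation of GRCr8 both lie inside H19 on the minus strand of chromosome 1, at chr1:207161800-207161821 and chr1:207161766-207161786, and 0 of the other mature rat miRNAs there, out of 724, share either seed.
rno-miR-675-5p: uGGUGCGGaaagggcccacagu
rno-miR-675-3p: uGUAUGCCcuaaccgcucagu

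The 6 genes did not move as a group. In the fit over all 11 arrays, which assumes a change shared by both arms, Phlda2 and H19 rose from day 0 to day 32 while Mest and Grb10 fell. Cdkn1c was high at day 7 in the feeder-free arm alone, and Igf2 had opposite courses in the arms. From day 0 to day 32 the paternally expressed Igf2 and Mest both fell in the feeder arm (-2.47 and -1.90). In the feeder-free arm they went opposite ways (0.98 and -0.81). The maternally expressed genes did not go 1 way in either arm. Changes are differences on the log2 scale, so that 1 stands for a doubling, and a gene was called changed where limma gave an adjusted p under 0.05 over all genes. At day 7 against day 0, 3 of the 6 were called, all higher, beside 16.0% of all genes called (6.74% higher and 9.27% lower). At day 17 against day 7, 3 were called, all lower, beside 12.8% of all genes (9.10% higher and 3.65% lower). At day 32 against day 17, 0 of the 6 were called in limma, beside 0% of all genes. In that comparison 1057 genes had an unadjusted p under 0.05, and 0 of the 6 were among them. Over the whole course, day 32 against day 0, 2 were higher and 2 lower, beside 31.0% of all genes (17.4% higher and 13.7% lower). Between the feeder and the feeder-free arm over all days, 1 was higher and 1 lower, beside 32.7% of all genes (15.5% higher and 17.2% lower). The median change of the 6 was 1.02 at day 7 against day 0, where the median of all genes was -0.04, and -0.18 at day 32 against day 0, where it was 0.05. In a fit of feeder-free cells alone 5 of the 6 were called at day 7 against day 0, all higher, beside 36.9% of all genes (16.2% higher and 20.7% lower). There 1 was higher and 4 lower at day 17 against day 7, beside 23.8% (16.5% higher and 7.36% lower), and 0 were called at day 32 against day 17 in limma, beside 7.32% (2.15% higher and 5.17% lower). All 6 were called at day 32 against day 0, 4 higher and 2 lower, beside 39.4% (20.4% higher and 19.1% lower).

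**Figure D1:**
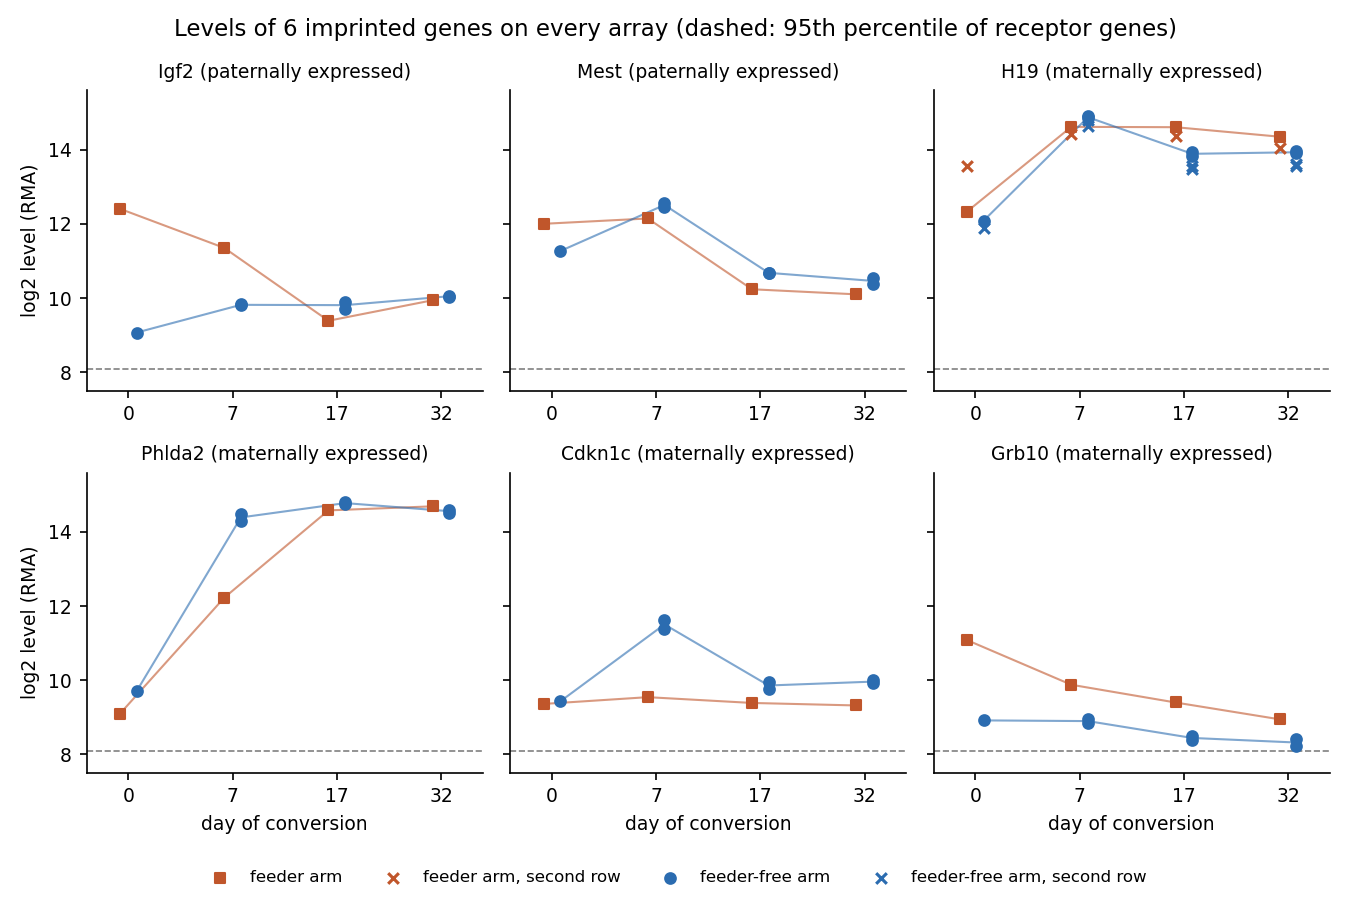
Log2 level of each gene (y axis) on each of the 11 arrays by day of conversion (x axis, days evenly spaced), with squares for the feeder arm, circles for the feeder-free arm, crosses for the second row of H19, and lines through the group means. The dashed line at 8.10 is the level below which 95% of 1240 receptor genes lie; Phlda2 climbed in both arms, and Igf2 started at 12.41 in the feeder arm and at 9.07 in the feeder-free arm.

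The values are log2 expression values from RMA, and all 11 arrays shared a median of 8.97. Replicates correlated at 0.997 to 0.998 across genes, and the pooled SD of the replicate pairs was 0.05 to 0.13 for the 6 genes. As background stood 1240 receptor genes of the olfactory and vomeronasal families, which few tissues express, with a median of 6.37 and a bound of 8.10 that 95% did not reach. No group mean of the 6 genes lay below that bound, and the lowest was that of Grb10 in feeder-free cells of day 32, at 8.32 ± 0.15 (SD, n = 2). The hypoblast label was checked with 10 of 11 listed markers, Gata4, Gata6 and Sox17 among them. Their mean was 9.42, 10.97, 13.71 and 13.79 at days 0, 7, 17 and 32 in the feeder arm, against 9.67 at day 0, 13.47 and 13.62 at day 7, 14.10 and 14.12 at day 17, and 14.05 and 13.97 at day 32 in the feeder-free arm. All 10 rose at day 32 against day 0, beside 17.4% of all genes higher, and the mean in the feeder arm was below both feeder-free arrays at day 7. Of 10 listed pluripotency markers 7 were measured, with a mean of 10.58 in the feeder arm and 11.07 and 10.92 in the feeder-free arm at day 32, against 12.92 and 13.96 at day 0. In such bulk RNA, fewer cells of a type and less RNA per cell cannot be told apart.

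Of the paternally expressed genes, Igf2 differed most between the arms. Its level in the feeder arm was 12.41 at day 0, 11.35 at day 7, 9.39 at day 17 and 9.94 at day 32. In the feeder-free arm it was 9.07 at day 0, 9.80 and 9.83 at day 7, 9.91 and 9.71 at day 17, and 10.06 and 10.04 at day 32. The feeder arm was thus above every feeder-free array at days 0 and 7 and below both feeder-free arrays at days 17 and 32. Ranked over the 8 groups, the feeder arrays of days 0 and 7 stood first, the starting feeder-free cells last, and only the feeder-free groups of days 7 and 17 were closer (0.01) than the pooled replicate SD of 0.08. From day 0 to day 32 the difference of group means was -2.47 in the feeder arm and 0.98 in the feeder-free arm, and in limma with a mean for each of the 8 groups these changes differed by -3.45 ± 0.19 (SE, adjusted p = 1.51e-07). The shared change was therefore small and was not called, at -0.57 ± 0.70 (adjusted p = 0.603). Without the starting feeder-free array it was -2.17 and called (adjusted p = 0.0318), and without the starting feeder array it was 0.83. In feeder-free cells alone Igf2 rose, by 0.75 ± 0.13 at day 7 against day 0 (adjusted p = 0.000294) and by 0.98 ± 0.13 at day 32 against day 0 (adjusted p = 2.16e-05). The step between was flat there, at -0.01 from day 7 to day 17.

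The mean of markers of fibroblasts, the feeder cell type, fell beside Igf2 from day 0 to day 17 in the feeder arm. Of 15 listed markers 13 were measured, among them Dcn, which is imprinted in the mouse placenta and is also on the list of maternally expressed genes. Their mean was 10.72, 9.75, 9.13 and 9.06 at days 0, 7, 17 and 32 in the feeder arm, and 8.62 to 9.09 over the feeder-free arrays. The summed log2 level was 139.3, 126.7, 118.7 and 117.8 in the feeder arm and 112.0 to 118.1 in the feeder-free arm. Postn, which encodes the matrix protein periostin, was at 11.79 in the feeder arm and 6.80 in the feeder-free arm at day 0, and Col1a1, a chain of type I collagen, was at 13.13 and 9.96. At day 17 Postn was at 6.66 in the feeder arm and 6.97 in the feeder-free arm, below the receptor bound in both. Vim differed, at 14.57 at day 0 and 14.30 at day 32 in the feeder arm and 8.69 and 14.46 in the feeder-free arm. In the fit shared by both arms 0 of the 13 were called at day 7 against day 0, beside 16.0% of all genes. At day 32 against day 0, 0 rose and 1 fell, beside 17.4% higher and 13.7% lower. The median change to day 32 was -1.15 in the feeder arm and 0.01 in the feeder-free arm. Of the 13 markers 2, 2, 4 and 3 lay below the receptor bound at days 0, 7, 17 and 32 in the feeder arm, and 3 to 4 on the feeder-free arrays. Their part in the Igf2 difference was not tested. On the arrays of days 17 and 32 alone Igf2 was -0.27 ± 0.10 in the feeder arm relative to the feeder-free arm. It was not called there in limma (adjusted p = 0.0638, an alternative chosen after the data were seen). The genes whose values ran most like those of Igf2 over the 11 arrays, among 5565 genes spanning at least 1 on the log2 scale, were Ptn (r = 0.963), Ccdc80 (r = 0.960) and Bgn (r = 0.955). These are descriptions over arrays that share culture and day.

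**Figure D2:**
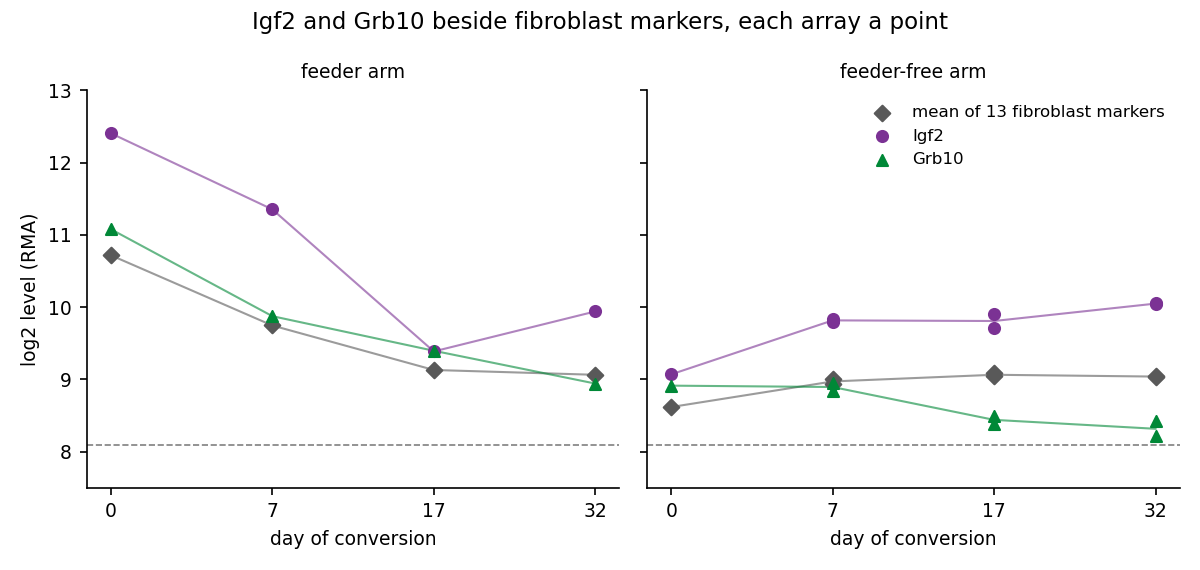
Log2 level (y axis) of Igf2 (circles), Grb10 (triangles) and the mean of 13 fibroblast markers (diamonds) on each array by day of conversion (x axis), the feeder arm on the left and the feeder-free arm on the right, lines through the means, dashed line at the receptor bound of 8.10. In the feeder arm the marker mean was 10.72 at day 0 and 9.06 at day 32, and Igf2 and Grb10 were also at their highest at day 0.

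Mest, named for its expression in mesoderm, was highest at day 7 and lowest at days 17 and 32 in both arms. Its level in the feeder arm was 12.00 at day 0, 12.15 at day 7, 10.24 at day 17 and 10.10 at day 32. Feeder-free cells had 11.27 at day 0, 12.47 and 12.55 at day 7, 10.67 and 10.69 at day 17, and 10.54 and 10.39 at day 32. No array of days 17 or 32 reached any array of days 0 or 7, and all 7 gaps between neighbouring groups were larger than the pooled replicate SD of 0.07. At day 17 against day 7 Mest fell by 1.86 ± 0.21 (SE, adjusted p = 0.00280), a 3.62-fold drop, with -1.91 in the feeder arm and -1.83 in the feeder-free arm (difference -0.08 ± 0.18, adjusted p = 0.838). Against day 0, Mest at day 32 had changed by -1.32 ± 0.24 (adjusted p = 0.00327). That value was -0.80 without the feeder day 0 array and remained called. The step to day 7 differed between the arms, with 0.14 in the feeder arm and 1.24 in the feeder-free arm (difference -1.10 ± 0.19, adjusted p = 0.000721), and the shared change of 0.73 ± 0.24 was not called (adjusted p = 0.0690). With the feeder-free arrays alone Mest rose by 1.24 ± 0.12 to day 7 (adjusted p = 1.96e-06). The genes most like Mest over the 11 arrays were Npr1 (r = 0.987), Lcp1 (r = 0.958) and Ly6e (r = 0.950).

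Among the maternally expressed genes H19 was the only member with 2 rows, which differed in the starting cells of the feeder arm. On the row with the higher mean H19 was at 12.34, 14.62, 14.61 and 14.35 at days 0, 7, 17 and 32 in the feeder arm. In feeder-free cells that row was at 12.09 at day 0, 14.85 and 14.91 at day 7, 13.84 and 13.94 at day 17, and 13.96 and 13.91 at day 32. Both day 0 arrays were thus below all later arrays, and at days 17 and 32 the feeder arm was above both feeder-free arrays of the same day. The feeder groups of days 7 and 17, and the feeder-free groups of days 17 and 32, differed by less than the pooled replicate SD of 0.05. H19 rose by 2.63 ± 0.20 at day 7 against day 0 (SE, adjusted p = 0.000212), or 6.17-fold, and was still 1.91 ± 0.20 higher at day 32 than at day 0 (adjusted p = 0.000354). Between days 7 and 17 the arms parted, with -0.01 in the feeder arm and -0.99 in the feeder-free arm (difference 0.98 ± 0.17, adjusted p = 0.000953). The shared fall of 0.66 ± 0.17 passed narrowly (adjusted p = 0.0405). On the other row the change was -0.82 and was not called (adjusted p = 0.143, fit of all rows). The fall of 0.66 did not pass with the rows averaged (adjusted p = 0.0579), with a replicate block (0.0699) or in a fit of all rows (0.05465). It was lost without any 1 of 7 arrays, namely each feeder-free array of days 7, 17 and 32 and the feeder array of day 32 (adjusted p = 0.0506 to 0.133).

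The other row of H19 was at 13.57, 14.42, 14.38 and 14.05 at days 0, 7, 17 and 32 in the feeder arm. In feeder-free cells it was at 11.89 at day 0, 14.65 and 14.81 at day 7, 13.47 and 13.57 at day 17, and 13.62 and 13.56 at day 32. At day 0 it was thus at 13.57 in the feeder arm and 11.89 in the feeder-free arm, whereas the row above was at 12.34 and 12.09, a smaller gap of 0.24 that was still larger than the pooled replicate SD of 0.05. In a fit of all rows it rose by 1.99 ± 0.35 at day 7 against day 0 (adjusted p = 0.0120) and missed at day 32 against day 0, at 1.11 ± 0.35 (adjusted p = 0.0503). Its changes also differed between the arms, by -1.98 ± 0.19 to day 7 (adjusted p = 0.000597) and by -1.22 ± 0.19 to day 32 (adjusted p = 0.0139). On the row above, in the fit of named genes, those differences were -0.50 ± 0.19 (adjusted p = 0.0737) and 0.18 ± 0.19 (adjusted p = 0.680). To day 7 both rows thus differed the same way, and the -0.50 passed with dim genes left out (adjusted p = 0.0442), with quantile normalization (-0.47, adjusted p = 0.0252) and with the trend and robust variance model (adjusted p = 0.00319). It did not pass with a replicate block (-0.48) or in the fit of all rows that was used for the other row. To day 32 the rows differed in opposite directions. The starting feeder array, on which the 2 rows were furthest apart, also had the highest mean of fibroblast markers (10.72). Any part of RNA from the mouse feeder cells in either row was not tested. The genes most like H19 over the 11 arrays were Rlim (r = 0.963), Sema7a (r = 0.958) and Junb (r = 0.948).

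Phlda2 had the largest changes of the 6 genes. Its level in the feeder arm was 9.10 at day 0, 12.22 at day 7, 14.58 at day 17 and 14.69 at day 32. Feeder-free cells had 9.71 at day 0, 14.31 and 14.47 at day 7, 14.80 and 14.75 at day 17, and 14.60 and 14.52 at day 32. The day 0 arrays were lowest in both arms, the feeder array of day 7 stood alone in between, and all other arrays lay between 14.31 and 14.80. The feeder array of day 17 and the feeder-free pair of day 32 differed by 0.02, less than the pooled replicate SD of 0.08. Phlda2 rose by 4.15 ± 0.45 at day 7 against day 0 (SE, adjusted p = 0.00117) and was 5.08 ± 0.45 higher at day 32 than at day 0 (adjusted p = 0.000210), or 33.9-fold. The arms reached that level at different times. To day 7 the change was 3.13 in the feeder arm and 4.68 in the feeder-free arm (difference -1.56 ± 0.19, adjusted p = 4.06e-05), and from day 7 to day 17 it was 2.36 and 0.39 (difference 1.97 ± 0.18, adjusted p = 3.34e-06). Over the whole course the change was 5.59 and 4.85, a difference of 0.74 ± 0.19 (adjusted p = 0.0251) that was lost without the second feeder-free array of day 32 (adjusted p = 0.0637) and in a fit of all rows (adjusted p = 0.0828). Hypoblast markers were likewise lower in the feeder arm at day 7 (mean 10.97, against 13.47 and 13.62 in the feeder-free arm), and their part in the Phlda2 values was not tested.

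The genes most like Phlda2 over the 11 arrays were Aldh2 (r = 0.995), Srgn (r = 0.993) and Ceacam1 (r = 0.993). Of 9 relatives of the 6 genes by protein family, all measured, 3 rose and 2 fell at day 7 against day 0, beside 16.0% of all genes called, and 4 rose and 0 fell at day 32 against day 0, beside 31.0%. Phlda1 rose by 1.95 ± 0.08 at day 7 against day 0 (adjusted p = 4.00e-05) and Phlda3, which restrains AKT signalling, by 0.94 ± 0.22 (adjusted p = 0.0221). Their changes at day 32 against day 0 were 1.39 ± 0.08 for Phlda1 and 1.44 ± 0.22 for Phlda3. Levels and changes of different rows carry different probes, so only the changes are set side by side here.

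Cdkn1c had a rise at day 7 that was seen in the feeder-free arm. Its level in the feeder arm was 9.36 at day 0, 9.54 at day 7, 9.39 at day 17 and 9.32 at day 32. Feeder-free cells had 9.43 at day 0, 11.39 and 11.62 at day 7, 9.76 and 9.96 at day 17, and 10.00 and 9.92 at day 32. The feeder-free pair of day 7 stood above all other arrays, and the 4 feeder arrays and the starting feeder-free cells lay between 9.32 and 9.54. Of the 7 gaps between neighbouring groups 5 were below the pooled replicate SD of 0.13. The change to day 7 was 0.18 in the feeder arm and 2.08 in the feeder-free arm (difference -1.89 ± 0.21, SE, adjusted p = 1.74e-05), and from day 7 to day 17 it was -0.16 and -1.65 (difference 1.49 ± 0.20, adjusted p = 9.28e-05). With the feeder-free arrays alone Cdkn1c rose by 2.08 ± 0.14 (adjusted p = 3.45e-08) and then fell by 1.65 ± 0.11 (adjusted p = 1.63e-07), ending 0.53 ± 0.14 above its day 0 level (adjusted p = 0.00718).

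The shared estimates for Cdkn1c averaged these courses and were called narrowly. They were 1.32 ± 0.36 at day 7 against day 0 (SE, adjusted p = 0.0403) and -1.15 ± 0.32 at day 17 against day 7 (adjusted p = 0.0491). Neither passed with a replicate block (adjusted p = 0.0818 and 0.0751) or in a fit of all rows (0.0536 and 0.0655). The value at day 17 also did not pass with quantile normalization (0.0542) or with the trend and robust variance model (0.0530). The call at day 7 was kept only without the feeder array of day 0 or of day 7. Without any other array it was lost, at 0.81 without the feeder-free day 0 array (adjusted p = 0.365). The call at day 17 was lost without each feeder-free array of days 7, 17 and 32 and without the feeder array of day 17 or 32 (adjusted p = 0.0622 to 0.146). Over all days the difference of the feeder from the feeder-free arm was -0.83 ± 0.25 for Cdkn1c (adjusted p = 0.0314). That value was -0.42 without the feeder day 7 array, and the call was lost without either feeder-free day 7 array, the second of day 17, either of day 32 or the feeder array of day 32 (adjusted p = 0.0502 to 0.0621). On days 17 and 32 alone it was -0.56 ± 0.09 (adjusted p = 0.00157).

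The mean of the trophoblast markers was highest at day 7 in both arms, and so were Mest, Cdkn1c and both rows of H19. In the feeder arm that lead was small for Cdkn1c (9.54, against 9.39 at day 17). For the rows of H19 in that arm it was 14.62 against 14.61 and 14.42 against 14.38 at day 17. The trophoblast is the outer embryonic lineage that forms much of the placenta, where Cdkn1c is strongly expressed in the mouse. The mean of 9 measured markers of 11 listed, which include the imprinted gene Ascl2, was 9.18, 10.23, 8.84 and 8.82 at days 0, 7, 17 and 32 in the feeder arm. In the feeder-free arm it was 9.21 at day 0, 11.59 and 11.69 at day 7, 8.76 and 8.70 at day 17, and 8.87 and 8.84 at day 32. Summed over the markers, day 7 stood at 92.1 in the feeder arm and 104.3 and 105.2 in the feeder-free arm, and the arrays of the other days lay between 78.3 and 82.8. Of the 9 markers 6 rose and 1 fell at day 7 against day 0, beside 6.74% of all genes higher and 9.27% lower. Cdx2 went the other way, at 13.13 and 11.14 in the feeder and feeder-free arms at day 0 and 9.50 and 9.71 at day 7. Tfap2c in feeder-free cells was at 12.48 at day 0 and 12.34 at day 7. No marker lay below the receptor bound on the day 7 arrays. Their part in the Cdkn1c, Mest and H19 values was not tested. The genes most like Cdkn1c over the 11 arrays were Was (r = 0.980), Hopx (r = 0.974) and Plac8 (r = 0.970), the last a gene first described in placenta. Cdkn1b, a relative of Cdkn1c among the inhibitors of cyclin-dependent kinases, fell by 0.90 ± 0.23 at day 7 against day 0 (adjusted p = 0.0304). Cdkn1a, another, was not called in any comparison of days and was lower in the feeder arm than in the feeder-free arm (-0.53 ± 0.11, adjusted p = 0.00560).

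Grb10 was highest in the starting cells of the feeder arm and was lower at day 32 than at day 0 in both arms. Its level in the feeder arm was 11.08 at day 0, 9.88 at day 7, 9.40 at day 17 and 8.94 at day 32. Feeder-free cells had 8.91 at day 0, 8.83 and 8.96 at day 7, 8.49 and 8.39 at day 17, and 8.21 and 8.42 at day 32. On each day the feeder array was above every feeder-free array of that day. The feeder array of day 32 and the feeder-free groups of days 0 and 7 were neighbours in rank and differed by less than the pooled replicate SD of 0.11. Grb10 was 1.12 ± 0.19 higher in the feeder arm over all days (SE, adjusted p = 0.00241) and 0.79 ± 0.10 higher on days 17 and 32 alone (adjusted p = 0.000538). It fell from day 0 to day 32 by 1.29 ± 0.28 (adjusted p = 0.00844), with -2.14 in the feeder arm and -0.60 in the feeder-free arm (difference -1.54 ± 0.20, adjusted p = 0.000218). The value was -0.67 without the feeder day 0 array and -1.98 without the feeder-free day 0 array, and was called in both. The step to day 7 was -1.20 in the feeder arm and -0.02 in the feeder-free arm (difference -1.18 ± 0.20, adjusted p = 0.000688).

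Grb10 and the mean of the fibroblast markers were both lower at each later day in the feeder arm, as the plot of both shows. The median change of the 13 markers in that arm from day 17 to day 32 was 0.04. On days 17 and 32 the marker means were 9.13 and 9.06 in the feeder arm and 9.03 to 9.09 in the feeder-free arm. At day 17 single markers differed both ways between the feeder and feeder-free arms. Fbn1 was at 8.78 and 8.24 and Postn at 6.66 and 6.97. Grb10 was higher in the feeder arm on days 17 and 32. The part of those markers in the Grb10 values was not tested. The fibroblast gene Fbn1 was among the 3 genes most like Grb10 over the 11 arrays (r = 0.961), after Dio3 (r = 0.973), itself an imprinted gene in the mouse, and Nfix (r = 0.970). Among relatives of Grb10 in the same adaptor family Grb7 rose by 1.34 ± 0.15 at day 32 against day 0 (adjusted p = 0.000499). Grb14 had group means of 7.73 to 8.15, at or near the receptor bound.

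**Figure D3:**
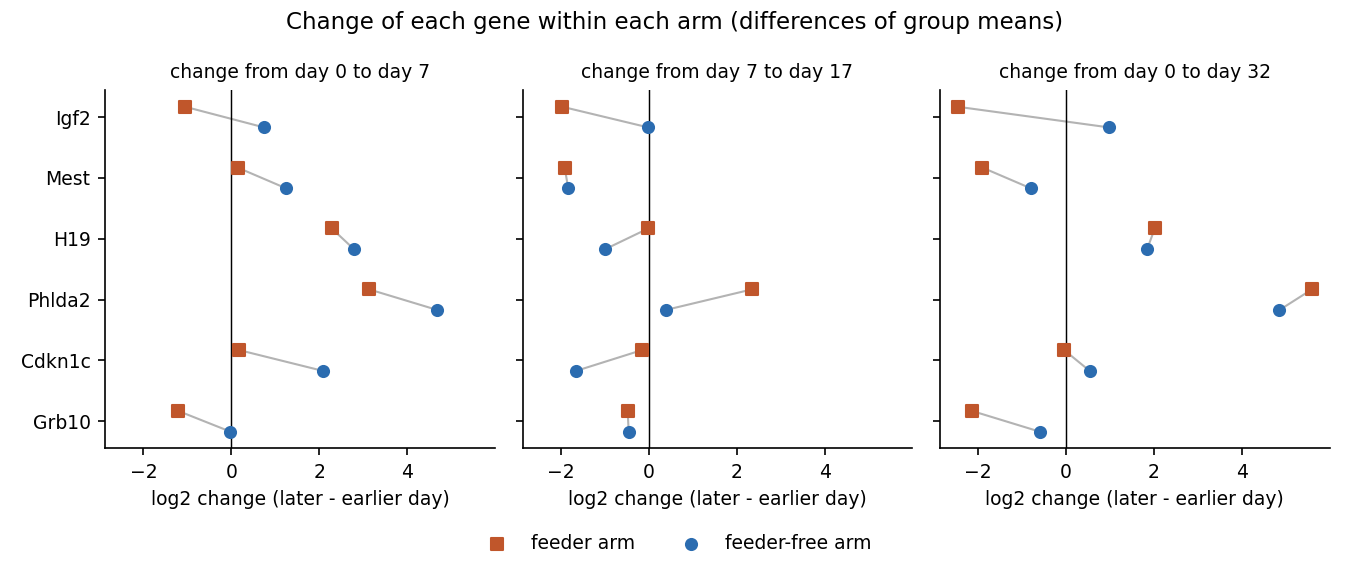
Difference of group means (x axis, log2) of each gene in the feeder arm (squares) and the feeder-free arm (circles) over 3 intervals, joined by a line; the feeder arm rests on single arrays. To day 7, 5 of the 6 genes changed by different amounts in the arms, with Igf2 at -1.05 in the feeder arm and 0.75 in the feeder-free arm.

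The arms were compared directly in the fit with 8 group means, in which the single feeder arrays are assumed to vary like the feeder-free pairs. The changes from day 0 to day 7 differed between the arms for 5 of the 6 genes, all lower in the feeder arm, beside 22.0% of all genes (10.9% higher and 11.2% lower). From day 7 to day 17 they differed for 4, namely Igf2 (lower in the feeder arm) and H19, Phlda2 and Cdkn1c (higher), beside 19.7% of all genes (10.7% higher and 8.97% lower). From day 0 to day 32 they differed for Igf2, Mest and Grb10 (lower) and Phlda2 (higher), beside 10.6% of all genes (5.87% higher and 4.73% lower). Cell type markers also differed between the arms. All 10 hypoblast markers had a lower change to day 7 in the feeder arm and a higher one from day 7 to day 17. All 7 pluripotency markers had a higher change to day 7 in the feeder arm (median -0.11, against -2.53 in the feeder-free arm) and a lower one from day 7 to day 17 (median -2.16, against -0.58). Their mean was 12.94 in the feeder arm and 11.51 and 11.64 in the feeder-free arm at day 7. The part of either list in the differences of the 6 genes was not tested. On days 17 and 32 alone the arms differed for 4 of the 6 genes, beside 37.4% of all genes. There H19 was higher in the feeder arm by 0.57 ± 0.09 (adjusted p = 0.00152) and Mest lower, at -0.40 ± 0.08 (adjusted p = 0.00400), besides Grb10 and Cdkn1c. The value for Phlda2 was -0.03 ± 0.09. Between days 32 and 17 on those arrays 0 of the 6 were called in limma, beside 5.47% of all genes, with Igf2 (unadjusted p = 0.00528), Mest (0.0300) and Grb10 (0.0421) under an unadjusted p of 0.05.

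Set pair by pair over the 11 arrays, the correlations between the 6 genes ran both ways. H19 and Phlda2 ran most alike (r = 0.80), followed by Igf2 and Grb10 (r = 0.79), of which Igf2 is paternally and Grb10 maternally expressed in the mouse. Mest and Cdkn1c had r = 0.60. The paternally expressed Igf2 and Mest had r = 0.40, and the neighbours Igf2 and H19 had r = -0.23. Phlda2 and Grb10 ran in opposite directions (r = -0.72). These values describe 11 arrays that share culture and day, and carry no test.

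The sequence just before the start of 3 genes that changed from day 0 to day 32 is given next, since a promoter lies just before the point where transcription begins and imprinted genes are often controlled through CpG-rich sequence. The sequences are the 250 bases before the start in the RefSeq annotation of GRCr8, from a table that held 4 of the 6 genes, at chr1:208127242-208127491 on the minus strand for Phlda2, chr4:60321564-60321813 on the plus strand for Mest and chr14:90816388-90816637 on the minus strand for Grb10. Capitals mark the GC box GGGCGG and the GATA core GATAAG on either strand.
Phlda2: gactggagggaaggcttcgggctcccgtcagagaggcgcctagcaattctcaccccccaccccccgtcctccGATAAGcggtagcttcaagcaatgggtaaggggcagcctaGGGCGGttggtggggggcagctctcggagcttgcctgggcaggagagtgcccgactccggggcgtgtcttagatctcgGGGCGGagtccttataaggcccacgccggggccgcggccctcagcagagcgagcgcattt
Mest: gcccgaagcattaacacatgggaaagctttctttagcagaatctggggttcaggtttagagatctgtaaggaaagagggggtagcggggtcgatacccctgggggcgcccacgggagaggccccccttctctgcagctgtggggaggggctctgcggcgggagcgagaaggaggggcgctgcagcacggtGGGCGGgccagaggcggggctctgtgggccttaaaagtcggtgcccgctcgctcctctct
Grb10: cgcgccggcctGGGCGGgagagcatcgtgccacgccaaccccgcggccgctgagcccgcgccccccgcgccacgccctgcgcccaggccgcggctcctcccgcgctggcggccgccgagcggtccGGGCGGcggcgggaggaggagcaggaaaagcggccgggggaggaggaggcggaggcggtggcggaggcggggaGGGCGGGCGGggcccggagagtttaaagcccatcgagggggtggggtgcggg

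Each of the 3 stretches held more CpG dinucleotides than most. There were 19 in that of Phlda2, 15 in that of Mest and 38 in that of Grb10, against a median of 5 over 33469 rat stretches of the same length. Of all stretches 81.6% had fewer than Phlda2, 74.2% fewer than Mest and 98.3% fewer than Grb10. The GC box occurred 2 times before Phlda2, 1 time before Mest and 4 times before Grb10, where 1 pair overlaps, and 30.5% of all stretches held at least 1. The GATA core occurred 1 time before Phlda2 and in 6.18% of all stretches, and was not found in the stretches of Mest and Grb10. A match of letters is a description and shows no binding, and no methylation was measured.

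In the rat annotation H19, Igf2, Cdkn1c and Phlda2 lie in the same stretch of chromosome 1, in the order H19, Mir675, Igf2, Ins2, Th, Ascl2, Cd81, Kcnq1, Cdkn1c, Slc22a18 and Phlda2, with further genes between them. In the mouse this stretch holds the H19-Igf2 and the Kcnq1 imprinted domains, each with its own control region. From Mrpl23 to Osbpl5, a stretch chosen after the values were seen, 29 genes are annotated and 17 had a value, 13 of them not among the 6. Of these 13 genes 0 rose and 1 fell at day 7 against day 0, beside 16.0% of all genes called, namely Cars1 (-0.49, adjusted p = 0.0242). Comparing day 32 with day 0, 2 rose and 0 fell, beside 31.0% of all genes called, Slc22a18 by 0.84 ± 0.19 (adjusted p = 0.0103) and Osbpl5 by 0.55 ± 0.115 (adjusted p = 0.00668), and the median change of the 13 was 0.03. Slc22a18, an organic cation transporter gene, is the next gene to Phlda2, whose change was 5.08. Cd81, a tetraspanin gene of the same stretch, was at 13.09 in the feeder arm and 10.03 in the feeder-free arm at day 0 and at 10.39 and 10.94 at day 32, the same order of the arms as for Igf2, and it was not called at day 32 against day 0 (-0.72, adjusted p = 0.470).

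**Figure D4:**
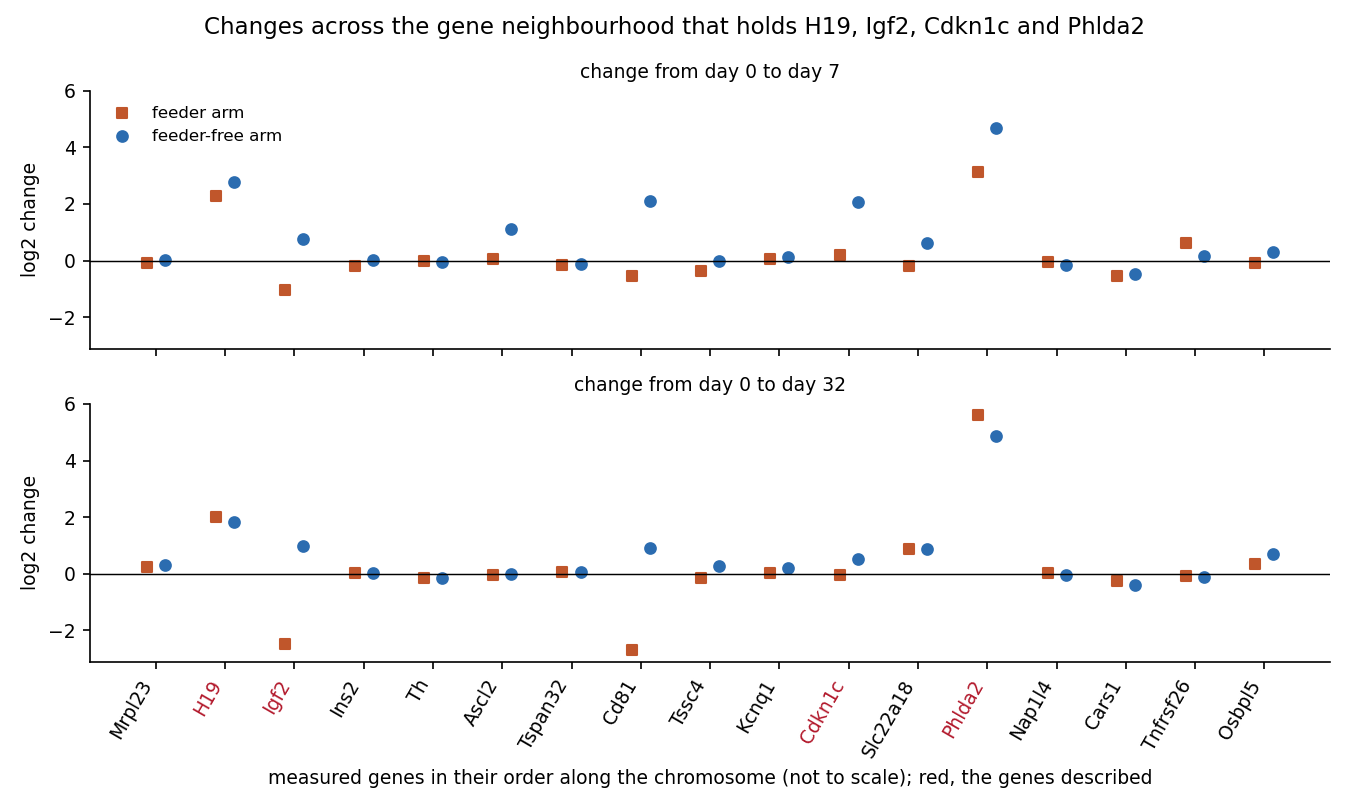
Difference of group means (y axis, log2) from day 0 to day 7 (top) and to day 32 (bottom) for the 17 measured genes from Mrpl23 to Osbpl5 in chromosomal order (x axis, not to scale), squares for the feeder arm and circles for the feeder-free arm. Phlda2 stands out at 5.59 in the feeder arm and 4.85 in the feeder-free arm at day 32, while its neighbours Slc22a18 and Nap1l4 lay below 1.

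Other imprinted genes were counted from lists by the parental origin known in the mouse. Of 26 further paternally expressed genes 15 were measured. At day 7 against day 0, 3 rose and 0 fell, beside 6.74% of all genes higher and 9.27% lower. Slc38a4, an amino acid transporter gene imprinted in placenta, rose by 2.64 ± 0.23 (adjusted p = 0.000436). The Polycomb-related gene Sfmbt2 rose by 2.02 ± 0.43 (adjusted p = 0.0170), with 0.79 in the feeder arm and 2.78 in the feeder-free arm. The zinc finger gene Plagl1 rose by 0.78 ± 0.17 (adjusted p = 0.0179). By day 32, against day 0, 4 of the 15 rose and 3 fell, beside 17.4% of all genes higher and 13.7% lower, led by Slc38a4 at 3.70 ± 0.23 (adjusted p = 3.91e-05), with levels of 13.64 in the feeder arm and 13.43 in the feeder-free arm at day 32, against 9.90 and 9.88 at day 0. Peg12 (1.34 ± 0.18) and Inpp5f (0.67 ± 0.15) also rose, and Snurf (-1.30 ± 0.33), Snrpn (-1.18 ± 0.34) and Sgce (-1.13 ± 0.30) fell. Snurf and Snrpn share a transcript, so their rows need not be independent. At day 17 against day 7 the neuronal membrane gene Nnat fell by 2.24 ± 0.53 (adjusted p = 0.0304), with -3.99 in the feeder arm and -1.36 in the feeder-free arm.

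Of 30 further maternally expressed genes 24 were measured. At day 7 against day 0, 1 rose and 2 fell, beside 6.74% of all genes higher and 9.27% lower. These were Atp10a (2.41 ± 0.51), Cobl (-1.85 ± 0.54) and Pon3 (-0.69 ± 0.19). Pon3 was below the receptor bound of 8.10 in every group but the starting feeder-free cells (8.23). By day 32, against day 0, 4 of the 24 rose and 4 fell, beside 17.4% of all genes higher and 13.7% lower, which is a share near that of all genes. Igf2r, which binds insulin-like growth factor II and sends it to the lysosome, fell by 2.99 ± 0.32 (adjusted p = 0.000410), with levels of 9.37 in the feeder arm and 9.53 in the feeder-free arm at day 32, against 12.37 and 12.64 at day 0. The actin nucleator gene Cobl, a neighbour of Grb10 in the mouse, fell by 3.00 ± 0.54 (adjusted p = 0.00336) and Ppp1r9a fell by 1.50 ± 0.32 (adjusted p = 0.00706), and Atp10a was higher by 2.01 ± 0.51 (adjusted p = 0.0161). The long noncoding RNA Meg3, named after its values were seen, rose by 1.67 ± 0.48 (adjusted p = 0.0270), with 0.70 in the feeder arm and 2.60 in the feeder-free arm. At day 32 against day 0, 10 of all 45 imprinted genes measured of 62 listed, the 6 members included, rose and 9 fell. That stood beside 31.0% of all genes called, and the median change was 0.06, beside 0.05 over all genes. The lists were not filtered by level. Group means of Calcr (7.34 to 7.67) and Tfpi2 (7.24 to 7.59), for example, were all below the receptor bound of 8.10. Counts and medians of the lists thus include genes at background level.

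**Figure D5:**
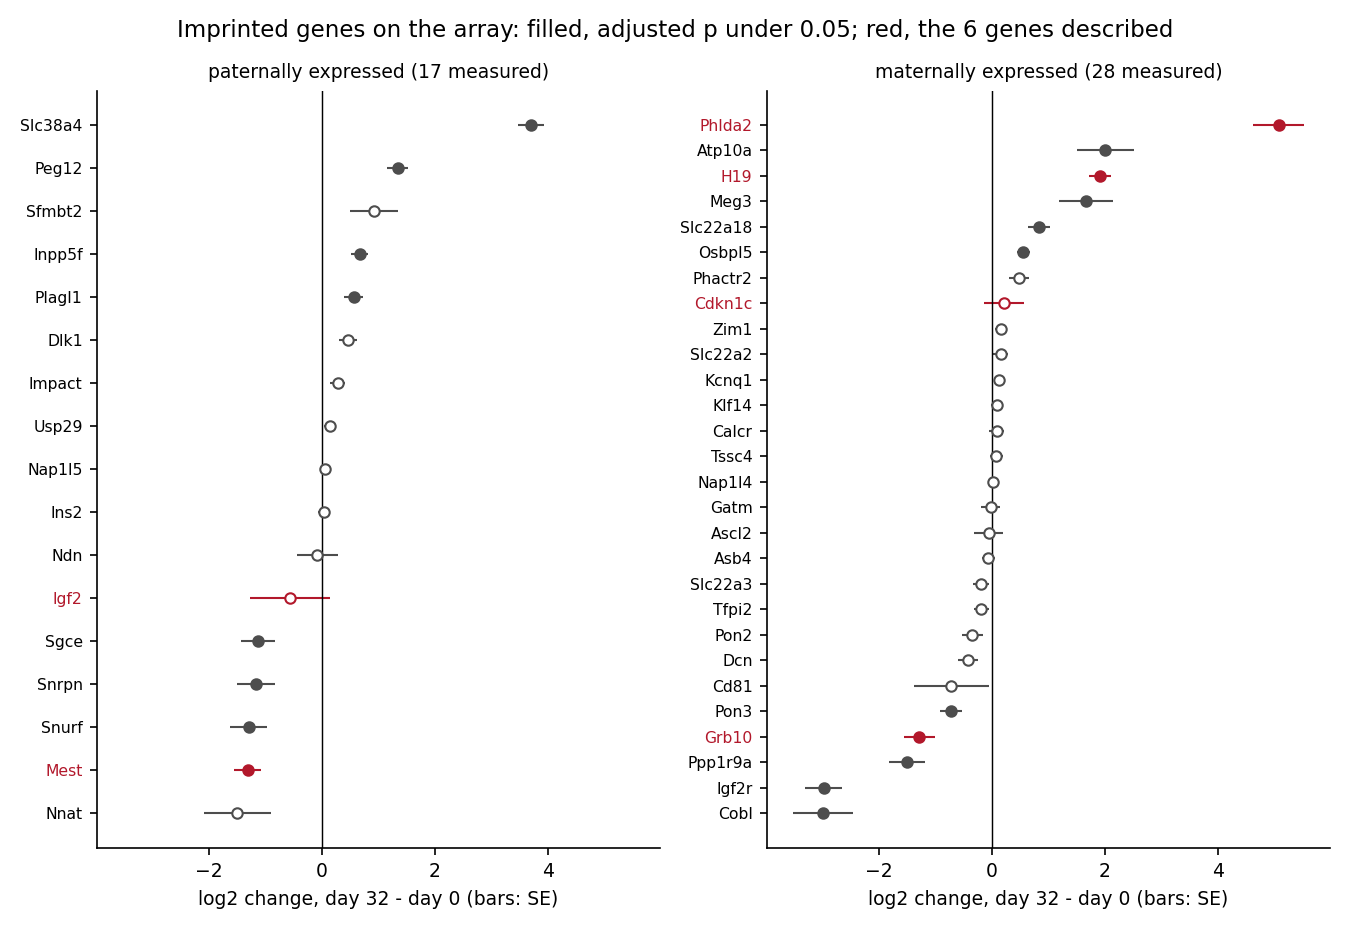
Change at day 32 against day 0 (x axis, log2, with the SE of the fit as bars) for 17 paternally (left) and 28 maternally (right) expressed genes in order of the change, filled where the adjusted p was under 0.05, and with the names of the 6 genes in red. Changes went both ways on each side, from 3.70 for Slc38a4 on the left and 5.08 for Phlda2 on the right to -3.00 for Cobl.

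Of 20 listed genes of the insulin-like growth factor pathway other than the 6, 15 were measured. At day 7 against day 0, 0 rose and 4 fell, beside 6.74% of all genes higher and 9.27% lower. At day 32 against day 0, 2 rose and 5 fell, beside 17.4% of all genes higher and 13.7% lower, with a median change of -0.20 beside 0.05 over all genes. Igf2r, described above, is 1 of these 5 and is on both lists. Igfbp2, a secreted binding protein of the growth factors, fell by 4.08 ± 0.15 at day 32 against day 0 (adjusted p = 1.10e-05). Its level was 8.50 in the feeder arm and 8.52 in the feeder-free arm at day 32, against 12.41 and 12.77 at day 0. The binding protein gene Igfbp5 fell by 2.76 ± 0.30 (adjusted p = 0.000410), and the ligand gene Igf1 rose by 3.10 ± 0.39 (adjusted p = 0.000734). The receptor genes Igf1r and Insr, named after their values were seen, went opposite ways. Igf1r fell by 2.61 ± 0.38 (adjusted p = 0.00142) and Insr rose by 2.50 ± 0.52 (adjusted p = 0.00652). Igf1r had -2.29 in the feeder arm and -3.07 in the feeder-free arm, and Insr 2.45 in the feeder arm and 2.81 in the feeder-free arm.

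Of 17 listed regulators of imprints 11 were measured, and at day 32 against day 0, 2 rose and 4 fell, beside 17.4% of all genes higher and 13.7% lower. Zfp57, a zinc finger protein that protects imprints in the early mouse embryo, fell by 2.01 ± 0.33 (adjusted p = 0.00220), with levels of 10.60 in the feeder arm and 10.71 in the feeder-free arm at day 32, against 12.65 and 12.82 at day 0. Uhrf1, which directs the maintenance methyltransferase to newly copied DNA, fell by 1.38 ± 0.27 (adjusted p = 0.00457), and Dnmt1, that methyltransferase, fell by 0.48 ± 0.10 (adjusted p = 0.00737). The de novo methyltransferase gene Dnmt3a rose by 1.25 ± 0.11 (adjusted p = 0.000196). Ctcf, whose protein binds the H19-Igf2 control region in the mouse, was lower in the feeder arm than in the feeder-free arm (-0.35 ± 0.07, adjusted p = 0.00634) and was not called in any comparison of days. These are levels of RNA and say nothing of methylation at the 6 genes.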

How the data were processed

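Total RNA was labelled with biotin and hybridised to 11 Affymetrix Rat Gene ST arrays, per the labels. The authors' deposited values are log2 expression values per probe set, for which the submitters' processing notes name RMA; the software version and annotation they used are not given in the sources used here. Scanner files were not used, so background correction could not be varied. Of 29214 rows, 15310 carried 1 gene symbol in the platform annotation, 323 several and 13581 none; rows with several or none were left unnamed. Where a gene had several rows (527 genes) the row with the highest mean entered the fit, which left 14506 genes. The 6 genes and all lists were chosen with earlier results of these data known.

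Changes were fitted with limma 3.58.1 (lmFit and eBayes, R 4.3.3) using day and culture as terms on all 11 arrays (6 residual degrees of freedom), and differences of changes with a mean for each of the 8 groups (3 residual degrees of freedom, from the feeder-free pairs). P-values were adjusted by Benjamini-Hochberg over all genes, with a threshold of 0.05. The procedure was tested on simulated data before use. Simulated shared changes of 1 on the log2 scale were recovered in 100% of cases, but with no difference of courses between the arms, unlike here. Of simulated differences of changes of 1, 49.3% to 50.7% were recovered, so real ones of that size may go uncalled. The number of arrays limits the precision, and the feeder arm and day 0 have no replicates of their own. Named were all 6 genes, from each list the called genes of smallest adjusted p (up to 6 for imprinted genes and up to 4 for the other lists), and the 3 genes most alike to each of the 6. Other genes are said to have been named after their values were seen, and marker genes are given as examples. The receptor genes were taken by symbol, and the set was widened after the annotation's symbols had been seen; 188 genes of the narrower set had a bound of 7.97. Same-numbered feeder-free arrays deviated from their group means with correlations of 0.03, -0.20 and -0.10 across genes, so the numbers were not taken as pairs. Alternatives were a filter on dim genes, quantile normalization, averaging a gene's rows, another variance model, a replicate block, group means, feeder-free cells alone, and omission of each array in turn. Fits of all rows, and of days 17 and 32 alone, were added after the data were seen. Promoter and miRNA sequences are from RefSeq (GRCr8). Tables and figures were made with Python 3.11.15, pandas 2.3.3 and matplotlib 3.10.9.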

Additional observations from a re-analysis of the deposited data

Results flagged for a closer look

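Of the differences between the cultures that were tested in the fit with 8 group means (limma, adjusted over all genes), 13 passed for the 6 genes, and all were already described. Each value is the change in the feeder arm minus that in the feeder-free arm on the log2 scale. For day 0 to day 7 they were -1.80 for Igf2, -1.10 for Mest, -1.56 for Phlda2, -1.89 for Cdkn1c and -1.18 for Grb10. For day 7 to day 17 they were -1.96 for Igf2, 0.98 for H19, 1.97 for Phlda2 and 1.49 for Cdkn1c. For day 0 to day 32 they were -3.45 for Igf2, -1.10 for Mest, 0.74 for Phlda2 and -1.54 for Grb10. The day 0 and feeder values behind them rest on single arrays. No group had 4 to 10 arrays, so no array was checked for standing apart from its group.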

How the results depend on the processing

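The main limits are the single arrays of the feeder arm and of day 0. For single genes, 744 results under other settings kept their direction and their side of the threshold, 44 lost the threshold, 29 gained it and 19 changed sign. At day 7 against day 0, 2322 genes and 3 of the 6 were called, against 4887 and 5 with group means and 5348 and 5 in feeder-free cells. At day 17 against day 7, 1850 genes and 3 of the 6 were called, against 5347 and 6 with group means and 3458 and 5 in feeder-free cells. Quantile normalization gave 1197 genes there, and a fit of every row left 1 of the 6. The 0 genes at day 32 against day 17 became 934 with group means (Igf2 among them, 0.40, adjusted p = 0.0164, hence 1 of the 6), 1062 in feeder-free cells and 794 on days 17 and 32. Between the arms a fit of every row called 9904 of 29214 rows, against 4749 of 14506 genes, and days 17 and 32 alone gave 4 of the 6 in place of 2. H19 averaged 13.88 over both rows and 13.95 on the brighter row.

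Omission of any 1 array gave 684 to 4448 genes at day 7 against day 0 (2 to 4 of the 6), 364 to 2344 at day 17 against day 7 (1 to 4), 0 to 232 at day 32 against day 17 (0), 2536 to 5528 at day 32 against day 0 (4 to 5) and 3738 to 4970 between the arms (1 to 3). The arrays behind shifts of over 1.5 times were, for day 7 against day 0, the starting feeder-free array (684), the feeder-free pair of day 7 (991 and 1129) and the feeder array of day 7 (4448). For day 17 against day 7 they were feeder-free replicate 1 of day 7 (798), the feeder-free pairs of day 17 (493 and 364) and day 32 (1001 and 1157), and the feeder array of day 17 (455). For day 32 against day 17 they were either starting array (14 each) and the feeder arrays of day 7 (232), day 17 (7) and day 32 (10), and for day 32 against day 0 the starting feeder-free array (2536). The differences of changes gave 3097 to 3340 genes to day 7 (5 of the 6 each time), 2717 to 2852 from day 7 to day 17 (4 of the 6) and 1288 to 1777 to day 32 (3 to 4 of the 6). They could not be estimated without the single arrays they rest on.

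Signs changed mostly for uncalled values. In feeder-free cells Igf2 was 0.75 at day 7 and 0.98 at day 32 against day 0, and H19 0.043 at day 32 against day 17. Over the omissions, Igf2 ran between -1.85 and 1.15 and Grb10 between -1.29 and 0.023 at day 7 against day 0. At day 32 against day 0, Igf2 ran between -2.17 and 0.83 and Cdkn1c between -0.30 and 0.66. At day 32 against day 17, Igf2 ran between -0.27 and 0.82, H19 between -0.16 and 0.14, Phlda2 between -0.49 and 0.13 and Cdkn1c between -0.072 and 0.21. The difference of changes of Grb10 from day 7 to day 17 ran between -0.085 and 0.037. Igf2 between the arms was -0.27 on days 17 and 32, against 0.94 over all days. The difference of changes of H19 to day 32, 0.18, was -0.52 with its rows averaged and -1.22 on its other row. Beyond the number of arrays left, the cause was not tested.

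With the replicate number as a block, 1325 genes were called at day 7 against day 0 and 984 at day 17 against day 7 (1 of the 6), and 1 of the 6 between the arms. Neither labels nor data tie the numbers to pairs.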
